A study of Mus musculus with 16 samples.

Results

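The genes described here are receptors for cytokines that act on thymocytes and the Socs genes, whose products inhibit the signals of such receptors. They are 10 genes given by name: the receptor genes *Il7r*, *Il2rb*, *Il2rg*, *Il4ra*, *Il6ra*, *Il21r* and *Ifngr1*, and the inhibitor genes *Socs1*, *Socs2* and *Socs3*. All 10 are listed in both count tables of the study, which share 24974 genes. Poly(A) RNA was sequenced from mouse thymocytes of 2 kinds, DP cells, which carry CD4 and CD8 together, and CD8 thymocytes, sorted as TCRβ+ CD8+ cells. DP cells had 3 samples of each genotype, and CD8 cells 5.

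Control and cKO mice both carried *Tox4* alleles (F/F) in which exons 4 to 6 lie between loxP sites, made on a C57BL/6 background. The cKO mice had in addition an Lck-Cre transgene, driven by the proximal promoter of *Lck*, which acts in T lineage cells from the DN3 stage onwards, so the DP and CD8 cells of a cKO mouse had both passed through earlier stages after Cre began to act. The control mice had no Cre, so an effect of Cre itself and loss of *Tox4* cannot be told apart. The mice were littermates of matched sex, aged 6 to 8 weeks. Which mouse each sample came from is not given in the sources used here, so the p-values measure the spread between these samples.

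Interleukin receptors pair a cytokine-specific chain with a shared one; *Il2rg* encodes the common γ chain used by the receptors for IL-2, IL-4, IL-7 and IL-21, and *Il2rb* the β chain shared by the IL-2 and IL-15 receptors. Binding of the cytokine activates JAK kinases and STAT factors, and STAT factors switch on Socs genes, whose products block the same pathway. In the thymus, IL-7 receptor is present on the earliest cells, is largely lost at the DP stage and returns after positive selection, while *Socs1* is known to restrain cytokine signals in DP cells.

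Between 14583336 and 25981683 fragments were counted on genes per DP sample and between 8514135 and 13530783 per CD8 sample. Levels are given as CPM, counts relative to library size after TMM scaling over all 16 samples, and levels of different genes are compared only as TPM, which also divides by exonic length. *Tox4* itself was at 149, 165 and 175 CPM in the DP control samples and at 128, 135 and 129 CPM in the DP cKO samples. All 3 DP cKO samples lay below all 3 DP controls (log2 fold change -0.32 with a standard error, SE, of 0.11, edgeR adjusted p = 0.381). In CD8 cells *Tox4* was at 199, 191, 204, 207 and 183 CPM in controls and at 173, 189, 178, 237 and 168 CPM in the samples labelled cKO. The library labelled CD8 cKO replicate 4, with 237 CPM, was above every CD8 control, so the groups overlapped and *Tox4* gives no check on how this library was labelled (log2 fold change -0.06, SE 0.10, edgeR adjusted p = 0.979). The count covers all exons of *Tox4*, and those outside the deleted stretch are still counted in cKO cells.

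The cell type labels were compared with markers. The summed level of 10 markers of DP thymocytes was 14597 to 19112 CPM in DP samples and 2499 to 3074 CPM in CD8 samples, with *Cd8b1* as the most abundant gene by mean TPM over all samples, the measure used for every list below, and *Rag1*, the recombinase gene of DP cells, was 153-fold higher in control DP than in control CD8 cells. Of 10 markers of mature single positive cells, 9 were called higher and 1, the most abundant, *Tcf7*, was called lower in control CD8 cells. Among all 11758 genes tested, 22% were called higher and 22.3% lower. CD8 samples were not alike among themselves. The samples numbered 1 and 2 had 93.0 and 122 CPM of *Rag1* in control and 78.8 and 99.1 CPM in cKO cells, while the other CD8 samples of both genotypes had 12.1 to 34.7 CPM. In CD8 control replicate 1, 17741 genes had at least 1 count, and in the remaining CD8 controls 13708 to 14194. *Xist*, transcribed from the inactive X chromosome, was at most 0.626 CPM in DP samples, between 3382 and 5142 CPM in the CD8 samples numbered 1, 2 and 5, and at most 29.5 CPM in those numbered 3 and 4, where the 29.5 CPM belonged to the library labelled CD8 cKO replicate 4.

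**Figure D1:**
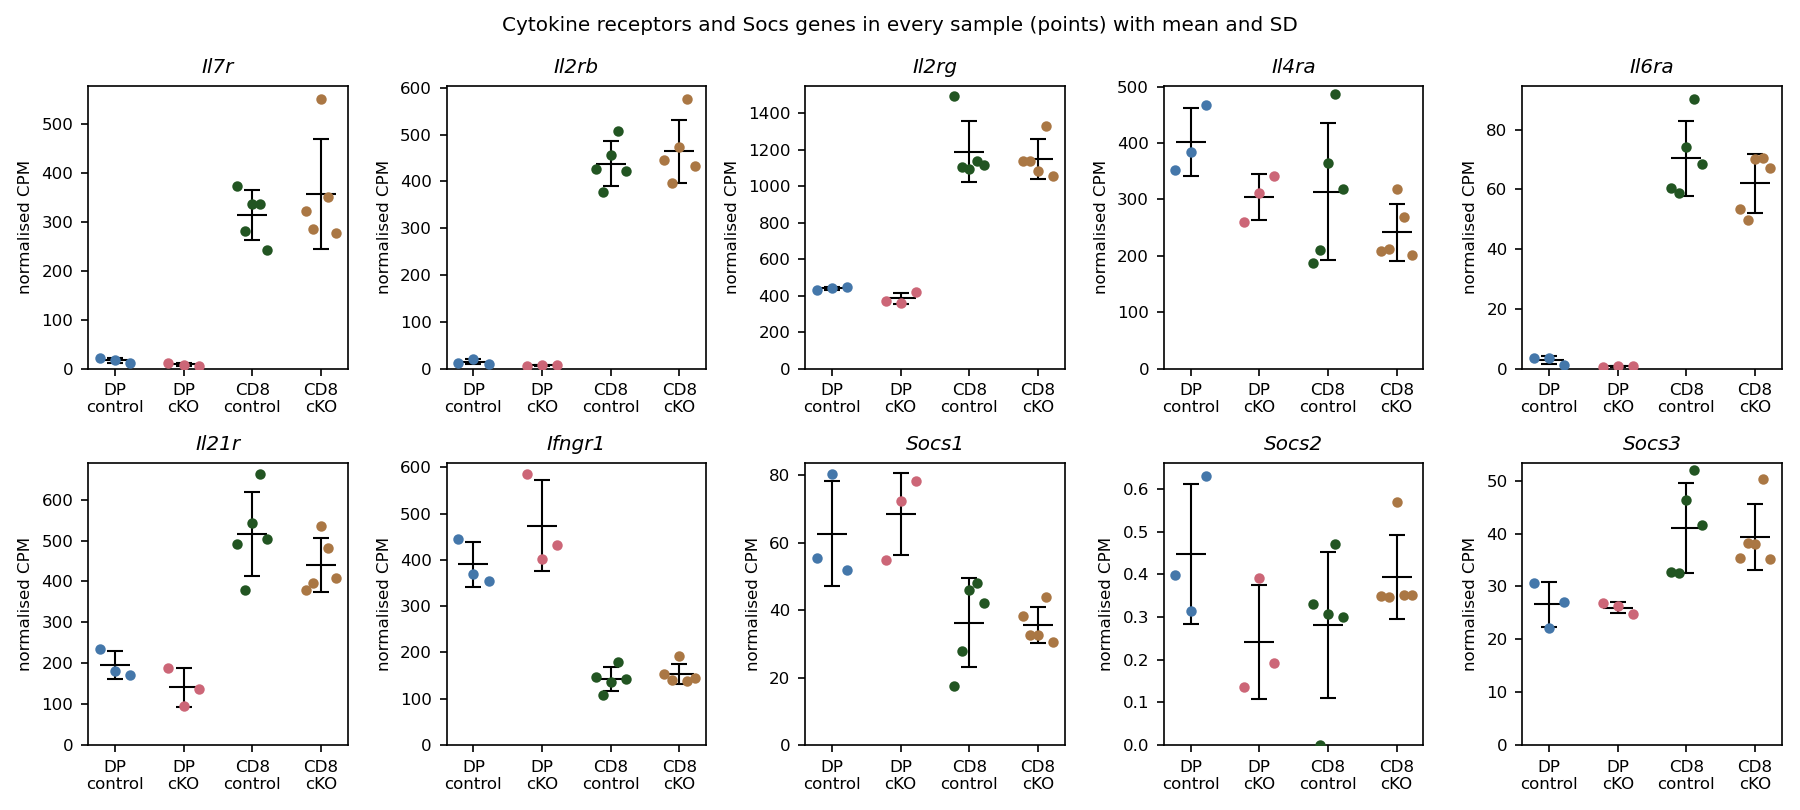
Level of each of the 10 genes in every sample. The vertical axis is normalised CPM on a linear scale from 0 that differs between panels, each point is a sample, and the horizontal dash and bar are the mean and SD of the group (n = 3 in DP groups and n = 5 in CD8 groups). *Il7r*, *Il2rb* and *Il6ra* lie near 0 in the DP groups beside CD8 groups with means of 313, 438 and 70.5 CPM in controls.

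In control DP cells the 10 genes ranged from 0.489 to 780 TPM on average. *Il2rg* was the highest, at 780 ± 21.9 TPM (SD, n = 3), followed by *Ifngr1*, which encodes the ligand-binding chain of the interferon-γ receptor, at 549 ± 94.2 TPM (SD, n = 3). *Il4ra* (227 TPM) and *Il21r* (224 TPM), the specific chains of the IL-4 and IL-21 receptors, overlapped between samples and came next. Below them were *Socs1* (138 TPM), *Socs3* (29.0 TPM), *Il7r* (15.7 TPM), *Il2rb* (15.3 TPM), *Il6ra* (2.39 TPM) and *Socs2* (0.489 TPM). In this order only *Il4ra* with *Il21r* and *Il7r* with *Il2rb* overlapped between neighbours.

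In control CD8 cells the order was different. *Il2rg* was again the highest, at 2263 ± 298 TPM (SD, n = 5), and was followed by *Il21r* at 625 TPM, *Il2rb* at 514 TPM, *Il7r* at 309 TPM, *Ifngr1* at 213 TPM and *Il4ra* at 189 TPM. *Socs1* (85.8 TPM), *Il6ra* (66.0 TPM), *Socs3* (47.7 TPM) and *Socs2* (0.326 TPM) were the lowest. Samples of neighbouring genes overlapped for *Il21r* and *Il2rb*, for *Il7r*, *Ifngr1* and *Il4ra*, and for *Socs1*, *Il6ra* and *Socs3*, so the order within these groups was not larger than the spread between samples. The cKO samples of each cell type had the same order, apart from *Il2rb* (557 TPM) and *Il21r* (548 TPM) in CD8 cells, whose samples overlapped. *Socs2*, encoding an inhibitor best known from growth hormone signalling, had 0 to 11 counts per sample and did not pass the filter on low counts, so 9 of the 10 genes were tested.

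All genes that passed the filter entered the quasi-likelihood test of edgeR, with p-values adjusted by the Benjamini-Hochberg method. A gene was called when its adjusted p was under 0.05, it changed 1.5-fold or more, and its mean level reached 1 TPM. The comparison of control CD8 with control DP cells asks how these genes differ between the stages, with *Tox4* intact. Of the 9 genes tested, 6 were called higher and 2 were called lower in CD8 cells, beside 44.3% of all 11758 genes called in either direction, 22% higher and 22.3% lower. The same 8 had an unadjusted p under 0.05, beside 64.1% of all genes, and did not overlap between cell types, 6 higher and 2 lower, beside 27% and 29.9% of all genes. The median log2 fold change of the 9 genes was 1.42 and that of all genes tested -0.01. The cell types were counted in separate tables and differ in depth, and the build used for CD8 cells is not given in the sources used here, so cell type and sequencing set cannot be told apart. In bulk samples, fewer cells of a type and less RNA per cell cannot be told apart either.

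*Il7r* was at 22.2, 16.8 and 11.7 CPM in control DP samples and at 372, 281, 336, 336 and 241 CPM in control CD8 samples. Every CD8 sample was far above every DP sample, and the log2 fold change was 4.24 (SE 0.23, edgeR adjusted p = 4.17e-08; 2-sided exact permutation p = 0.0357, the smallest that 5 against 3 samples allow). *Il2rb* went from 12.4, 19.9 and 9.74 CPM in control DP samples to 427, 378, 456, 508 and 421 CPM in control CD8 samples. The difference of 4.99 on the log2 scale was the largest among the 9 genes (SE 0.24, edgeR adjusted p = 1.84e-08), and no samples overlapped. *Il6ra*, the ligand-binding chain of the IL-6 receptor, was at 3.47, 3.51 and 1.15 CPM in control DP samples and at 60.6, 58.9, 74.1, 90.2 and 68.6 CPM in control CD8 samples. All CD8 samples were again far above all DP samples (log2 fold change 4.72, SE 0.31, edgeR adjusted p = 2.08e-07), although *Il6ra* rested on only 20 to 67 counts in each control DP sample.

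The shared γ chain gene rose less. *Il2rg* was at 430, 440 and 447 CPM in control DP samples and at 1491, 1105, 1095, 1138 and 1117 CPM in control CD8 samples. The DP samples lay within a narrow band and CD8 control replicate 1 was above the other CD8 controls, and the log2 fold change was 1.47 (SE 0.13, edgeR adjusted p = 1.94e-06). *Il2rg* lies on chromosome X. In the control samples low in *Xist* alone, an alternative chosen after the values were seen, it rose by 1.38 on the log2 scale (edgeR adjusted p = 8.44e-06). *Il21r* rose from 172 to 236 CPM in control DP samples to between 379 and 662 CPM in control CD8 samples, by 1.42 on the log2 scale (SE 0.17, edgeR adjusted p = 2.58e-05).

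*Ifngr1* and *Il4ra* did not share this rise. *Ifngr1* was at 445, 370 and 355 CPM in control DP samples and at 147, 108, 136, 178 and 142 CPM in control CD8 samples. All CD8 samples were below all DP samples, and the log2 fold change was -1.43 (SE 0.14, edgeR adjusted p = 4.73e-06). *Ifngr2*, which encodes the second chain of the same receptor, was at 53.3 CPM on average in control DP cells and 183 CPM in control CD8 cells and was called higher, with a log2 fold change of 1.81 (edgeR adjusted p = 1.45e-05). *Il4ra* was at 353, 384 and 468 CPM in control DP samples and at 187, 211, 364, 486 and 319 CPM in control CD8 samples. The CD8 controls numbered 1 and 2 were the lowest, that numbered 5 was also below the DP samples and those numbered 3 and 4 were not, so the groups overlapped and *Il4ra* did not pass the test (log2 fold change -0.33, SE 0.26, edgeR adjusted p = 0.286). Without the samples numbered 1 and 2, the 2 groups came to a log2 fold change of -0.01, and in the control samples low in *Xist* alone to 0.12. It grew to -0.53 without CD8 control replicate 4 (edgeR adjusted p = 0.0491, with a fold change under 1.5) and to -0.68 with the replicate number as a block (edgeR adjusted p = 0.00699). That block ties DP to CD8 samples by number alone, which no value here backs: the samples numbered 1 and 2 are low in *Xist* among DP and high among CD8 cells. Over 19 ways of fitting, the adjusted p ran from 0.00699 to 0.953. *Il4ra* and *Il21r* are neighbours on the plus strand of chromosome 7 (mm10, chr7:125552271-125579474 and chr7:125603429-125633570), 23954 bases apart, and no exon of the 10 genes overlaps an exon of another listed gene.

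*Socs1* and *Socs3* were called in opposite directions between the stages, and both calls depended on single samples. *Socs1* was at 55.6, 80.5 and 51.8 CPM in control DP samples and at 17.6, 27.8, 45.9, 48.2 and 42.1 CPM in control CD8 samples. All CD8 controls were below all DP controls, but the highest of the former (48.2 CPM) came close to the lowest of the latter (51.8 CPM), and CD8 control replicates 1 and 2 were the lowest. The log2 fold change was -0.76 (SE 0.28, edgeR adjusted p = 0.0319). It was no longer past the threshold without DP control replicate 2 (-0.53, edgeR adjusted p = 0.174) or without CD8 control replicate 2 (-0.67, edgeR adjusted p = 0.0696), and in the control samples low in *Xist* alone it was -0.38 (edgeR adjusted p = 0.135). Without CD8 control replicate 1 (-0.58) and without both CD8 samples numbered 1 and 2 (-0.43, edgeR adjusted p = 0.0422) the fold change was under 1.5. Over 19 ways of fitting, the adjusted p of *Socs1* ran from 0.00978 to 0.174. *Socs3*, which encodes the inhibitor that binds the IL-6 receptor chain gp130, was at 30.6, 22.2 and 27.1 CPM in control DP samples and at 32.7, 32.6, 46.5, 52.0 and 41.7 CPM in control CD8 samples. Its samples did not overlap either, with the CD8 controls numbered 1 and 2 closest to DP cells, and it was called higher (log2 fold change 0.65, SE 0.18, edgeR adjusted p = 0.00782). Its fold change fell under 1.5 without DP control replicate 2 (0.54 on the log2 scale), without CD8 control replicate 4 (0.57) and with the same block by number (0.51), and over 19 ways of fitting its adjusted p ran from 0.00070 to 0.0480.

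**Figure D2:**
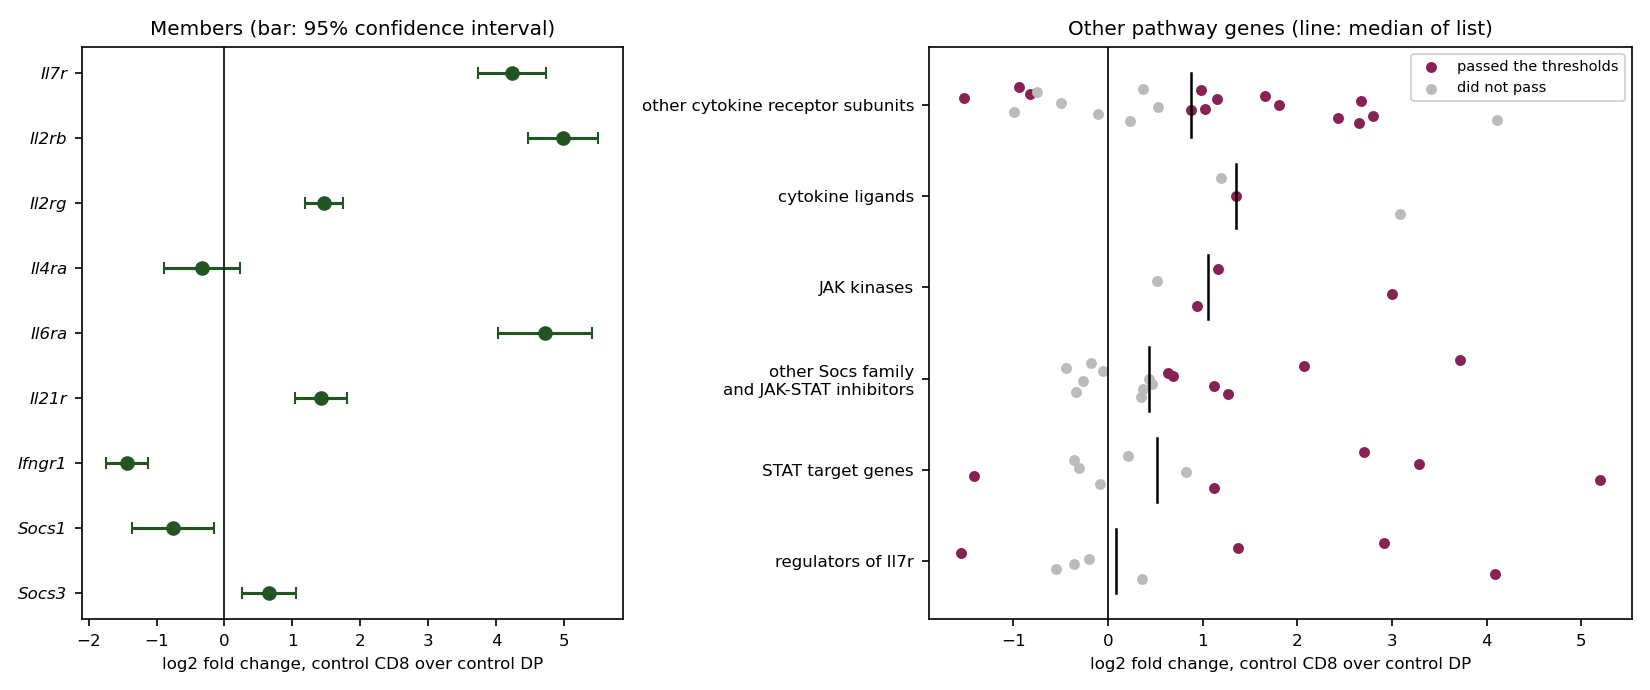
Log2 fold change of control CD8 over control DP cells. On the left each point is 1 of the 9 tested genes with its 95% confidence interval from edgeR; on the right each point is another gene of the pathway, for the lists shown, with a line at the median of the list and colour for genes that passed the thresholds. *Il7r*, *Il2rb* and *Il6ra* stand at 4.24, 4.99 and 4.72, and *Ifngr1* and *Socs1* are the genes with intervals below 0.

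Other genes of the pathway were listed by role, 78 in all. Of these, 68 were tested in control CD8 against control DP cells, and 30 were called higher and 6 lower, with a median log2 fold change of 0.57. The shares over all genes, against which these counts and those of each list below are to be read, were 22% higher and 22.3% lower. Of 21 other receptor subunits tested, 10 were higher and 3 lower. *Il27ra*, *Tgfbr2* and *Il18r1*, encoding receptor chains for IL-27, TGF-β and IL-18, rose by 2.67, 2.65 and 2.80 on the log2 scale, and *Il12rb1*, *Il2ra* and *Il10ra* had log2 fold changes of -1.52, -0.94 and -0.83. The call of *Il2ra* was lost when 1 of 4 samples was left out, with edgeR adjusted p-values of 0.0524 to 0.131, and with the block by number (-0.78, adjusted p = 0.0723; 0.00060 to 0.131 over 19 ways of fitting).

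JAK kinases carry the signal of many of these receptors. Of the 4, 3 were called higher, *Jak2* was not called and none was called lower: *Jak3*, whose product binds the γ chain, by 3.0 on the log2 scale, *Jak1* by 1.17 and *Tyk2* by 0.94. *Jak3* was at 40.6, 57.5 and 43.5 CPM in control DP samples and 347 to 388 CPM in control CD8 samples. Among the STAT factors, *Stat4* (1.26) and *Stat3* (0.62) were called higher and *Stat5b* (-0.71) lower. Of 15 other Socs family genes and JAK-STAT inhibitors, 6 were higher and none lower, led by *Cish*, a STAT5 target and inhibitor of IL-2 signals (3.71), *Socs5* (2.07) and *Sh2b3* (1.27).

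Of 10 known STAT targets, 4 were higher and 1 lower, with *Bcl3* (5.2), *Pim2* (3.29) and the survival gene *Bcl2* (2.70) on one side and *Bcl6* (-1.41) on the other. Of 8 regulators of *Il7r*, *Runx3*, *Foxo1* and *Foxp1* were higher by 4.09, 2.92 and 1.37 on the log2 scale, and *Gfi1* was lower (-1.56). Only 3 of 11 cytokine genes passed the filter on low counts, and of these *Osm*, the oncostatin M gene, was called higher (1.36). *Il7* and *Il6* themselves were at 0 in all CD8 samples, and *Il6* also in all DP samples.

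Promoter windows of RefSeq (GRCm38.p6), from 250 bases before to 50 after the start of a gene, were found by symbol for 8 of the 10 genes; *Il2rb* and *Socs2* had no entry. They were searched, together with that of *Cish*, for the STAT-type letters TTCNNNGAA and for the same outer letters spaced by 4 bases in place of 3, which read the same on both strands, and for the FOXO-type letters GTAAACA on either strand. Among all 32851 windows, 8.3% held TTCNNNGAA, 6.95% held the wider form and 3.65% held GTAAACA. The windows with a match are shown 5′ to 3′ in the direction of the gene, since they belong to genes that differed between the stages, with the matching letters in capitals. They lie at chr15:9529827-9530126 on the minus strand (*Il7r*), chr7:125603179-125603478 on the plus strand (*Il21r*), chr11:117969317-117969616 on the minus strand (*Socs3*) and chr9:107296409-107296708 on the plus strand (*Cish*).
Il7r: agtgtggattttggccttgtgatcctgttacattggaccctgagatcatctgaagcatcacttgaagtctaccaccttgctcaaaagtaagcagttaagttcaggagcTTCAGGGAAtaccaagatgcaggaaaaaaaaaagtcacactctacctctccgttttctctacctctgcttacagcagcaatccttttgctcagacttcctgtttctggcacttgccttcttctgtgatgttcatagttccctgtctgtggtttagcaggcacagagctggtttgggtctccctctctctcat
Il21r: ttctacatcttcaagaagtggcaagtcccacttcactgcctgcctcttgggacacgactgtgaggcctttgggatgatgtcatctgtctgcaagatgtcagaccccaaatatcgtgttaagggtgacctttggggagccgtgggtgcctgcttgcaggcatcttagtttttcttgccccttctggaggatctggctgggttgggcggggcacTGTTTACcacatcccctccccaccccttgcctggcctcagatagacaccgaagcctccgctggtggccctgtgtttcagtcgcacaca
Socs3: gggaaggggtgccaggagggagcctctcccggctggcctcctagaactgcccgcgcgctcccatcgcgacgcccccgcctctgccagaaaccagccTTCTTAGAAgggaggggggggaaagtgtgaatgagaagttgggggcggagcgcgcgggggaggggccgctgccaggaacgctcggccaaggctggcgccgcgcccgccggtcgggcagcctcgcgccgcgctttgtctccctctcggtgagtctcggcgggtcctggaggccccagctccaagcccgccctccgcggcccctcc
Cish: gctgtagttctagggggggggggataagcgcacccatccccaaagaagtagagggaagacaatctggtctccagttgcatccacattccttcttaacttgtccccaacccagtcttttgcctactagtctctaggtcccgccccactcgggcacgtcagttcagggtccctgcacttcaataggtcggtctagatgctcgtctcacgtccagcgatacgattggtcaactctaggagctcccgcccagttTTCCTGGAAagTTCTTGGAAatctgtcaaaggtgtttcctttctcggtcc
TTCNNNGAA occurred once in the windows of *Il7r* and *Socs3*, with its first base at -142 and -154 from the start, and at 2 places in that of *Cish*, at 1 and 12. GTAAACA occurred once, in *Il21r* at -38, and the wider form in none of the 9 windows. A match is a description of letters and not a binding site.

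In the DP samples the comparison of cKO with control asks what differs with the deletion. Of the 9 tested genes edgeR called 0, beside 0.145% of all 11748 genes (0.0851% higher and 0.0596% lower). Of the 9, 4 had an unadjusted p under 0.05, beside 9.18% of all genes. DESeq2 called 2, beside 163 of all 16897 genes it tested. In 5 of the 9, *Il7r*, *Il2rb*, *Il2rg*, *Il4ra* and *Il6ra*, every cKO sample was below every control sample, beside 7.22% of all genes, and in 0 every cKO sample was above, beside 7.45%. Their exact permutation p was 0.1, the smallest that 3 against 3 samples allow. The median log2 fold change of the 9 genes was -0.40, and that of all genes tested was -0.00.

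*Il7r* was at 22.2, 16.8 and 11.7 CPM in DP control samples and at 11.6, 8.08 and 5.84 CPM in DP cKO samples. Within each genotype the sample numbered 1 was the highest and that numbered 3 the lowest, and the lowest control and the highest cKO sample all but met. The log2 fold change was -1.0 (95% interval -1.68 to -0.31, edgeR adjusted p = 0.328), a mean in cKO cells of 50.2% of the control mean. With the replicate number of the labels as a block, a pairing that the DP samples numbered 1 bear out more than the others, *Il7r* was called, at -1.0 with an edgeR adjusted p of 0.0166. Over 15 ways of fitting, its adjusted p ran from 0.0166 to 0.722. Among all 11748 genes, 131 were called with that block.

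*Il2rb* was at 12.4, 19.9 and 9.74 CPM in DP control samples and at 4.33, 7.17 and 8.19 CPM in DP cKO samples. The groups did not overlap, control replicate 2 was the highest sample, and the log2 fold change was -1.10 (95% interval -1.82 to -0.38, edgeR adjusted p = 0.289). DESeq2 called it, with an adjusted p of 0.0348, and over 15 ways of fitting the adjusted p ran from 0.0348 to 0.568. *Il6ra* was at 3.47, 3.51 and 1.15 CPM in DP control samples and at 0.501, 0.782 and 0.773 CPM in DP cKO samples. Control replicate 3 lay closer to the cKO samples than to the other controls. These values rest on 11 to 67 counts per sample, and the log2 fold change of -1.99 (95% interval -3.11 to -0.86) had an edgeR adjusted p of 0.220, while DESeq2 (adjusted p = 0.0207) and edgeR with all 4 groups in one fit (adjusted p = 0.0143) called it. Over 15 ways of fitting, its adjusted p ran from 0.0143 to 0.557. The fit of all 4 groups called 42 of all 12131 genes in this comparison.

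The other receptor genes had smaller differences, and none was called by edgeR or DESeq2. *Il4ra* was at 353, 384 and 468 CPM in DP control samples and at 259, 312 and 341 CPM in DP cKO samples, next to each other but without overlap (log2 fold change -0.40, edgeR adjusted p = 0.408). *Il2rg* was at 430 to 447 CPM in control and 360 to 419 CPM in cKO samples, with -0.20 as the log2 fold change (edgeR adjusted p = 0.622) in a gene whose control samples differed little. *Il21r* (172 to 236 CPM in control and 95.4 to 190 CPM in cKO samples) and *Ifngr1* (355 to 445 CPM in control and 403 to 586 CPM in cKO samples) overlapped between genotypes, with log2 fold changes of -0.48 and 0.28. Within each replicate number *Il21r* was lower and *Ifngr1* higher in the cKO sample. With the replicate number as a block neither was called (edgeR adjusted p = 0.0904 and 0.169).

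*Socs1* was at 55.6, 80.5 and 51.8 CPM in DP control samples and at 54.8, 72.3 and 78.2 CPM in DP cKO samples. The groups overlapped over most of their range, and the log2 fold change was 0.12 (95% interval -0.33 to 0.57). Without DP control replicate 3 it was -0.0017. *Socs3* was at 22.2 to 30.6 CPM in control and 24.9 to 26.9 CPM in cKO samples, with -0.03 as the log2 fold change (95% interval -0.37 to 0.31). *Socs2* had 6 to 11 counts in control and 3 to 6 in cKO samples and was not tested.

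**Figure D3:**
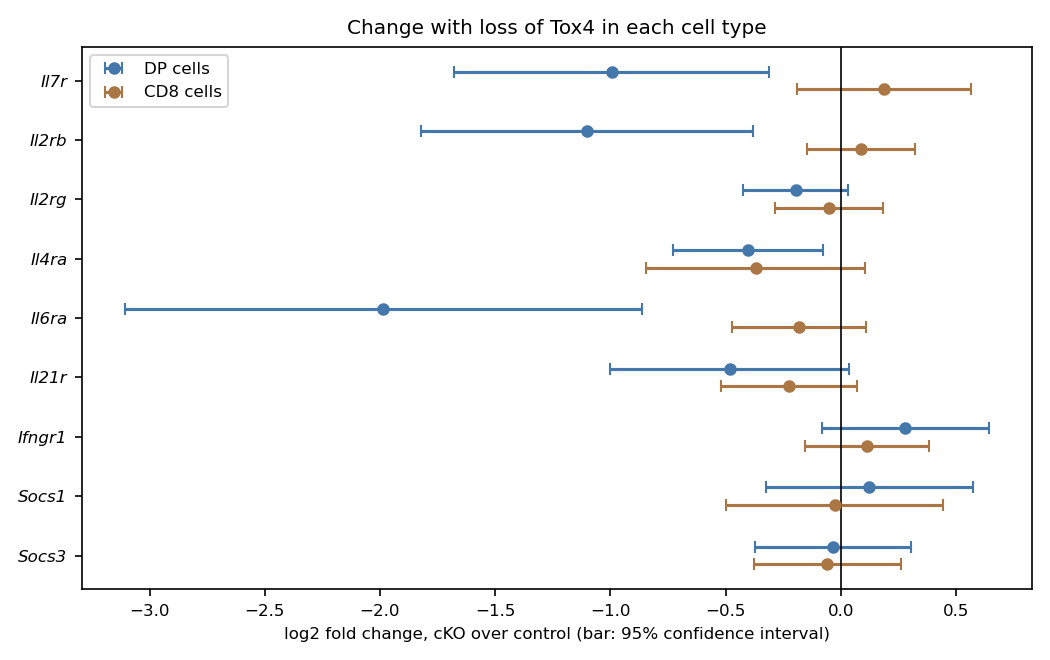
Log2 fold change of cKO over control for the 9 tested genes in DP and in CD8 cells. Points are edgeR estimates and bars their 95% confidence intervals. In DP cells the intervals of *Il7r*, *Il2rb*, *Il4ra* and *Il6ra* lie below 0 before adjustment over all genes, and in CD8 cells all intervals include 0.

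Without the replicate block or the fit of all 4 groups, edgeR called none of the 5 receptor genes without overlap in DP cells. Of these 5, *Il7r*, *Il2rb* and *Il6ra* have much higher levels in CD8 cells, *Il2rg* a smaller excess and *Il4ra* none. The control DP mean was 5.4% of the control CD8 mean for *Il7r*, 3.20% for *Il2rb* and 3.84% for *Il6ra*, and the DP cKO mean was 2.71%, 1.5% and 0.972% of it. Several markers of mature cells moved with them. *S1pr1*, the egress receptor gene, was at 5.64, 2.41 and 2.52 CPM in DP control samples and at 1.55, 0.977 and 1.55 CPM in DP cKO samples, and its mean went from 0.471% to 0.181% of the control CD8 mean. *Ccr7* was at 30.9, 20.2 and 16.8 CPM in DP control and at 11.2, 11.1 and 10.01 CPM in DP cKO samples. Of 10 markers of mature cells edgeR called 0, beside 0.145% of all 11748 genes, and DESeq2 called 3, beside 163 of all 16897. Of the 10, 4 had an unadjusted p under 0.05, beside 9.18% of all genes. In 4 of the 10, *S1pr1*, *Ccr7*, *Itgae* and *Cd69*, all cKO were below all control samples, beside 7.22% of all genes. *Klf2* overlapped. The summed level of the list, mostly that of its most abundant gene *Tcf7*, was 5783, 6801 and 7080 CPM in DP control and 5822, 6284 and 7545 CPM in DP cKO samples.

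Some markers of other cells had lower values in DP cKO samples, with none called lower by edgeR. Of 5 CD4 lineage markers, *Zbtb7b* and *Il2ra* had all cKO below all control samples, beside 7.22% of all genes. The list summed to 49.99, 38.8 and 33.9 CPM in control and 23.9, 25.2 and 29.3 CPM in cKO samples, with *Ctla4* the most abundant. *Ctla4* itself was at 3.93, 5.34 and 3.78 CPM in DP control and 3.64, 7.49 and 7.92 CPM in DP cKO samples, which overlapped with 2 cKO samples above all controls. Of 8 myeloid and dendritic markers tested, 4 had all cKO below all control samples, beside 7.22% of all genes, and 1, *Cd68*, above, beside 7.45%. Their sum was 79.6, 150 and 71.4 CPM in control and 51.0, 56.9 and 69.9 CPM in cKO samples, and the most abundant, *Cd74*, was at 35.5, 78.6 and 33.7 CPM in control and 16.3, 22.2 and 31.0 CPM in cKO samples. The myeloid gene *Lyz2* was at 6.15, 21.4 and 8.02 CPM in control and 3.46, 3.71 and 4.21 CPM in cKO samples. *Il6ra* and *Il7r* are transcribed in such cells as well as in mature T cells. DP cells were sorted by flow cytometry before RNA was taken, a step meant to remove cells of other types. The part of these cells in the lower *Il7r*, *Il2rb* and *Il6ra* of DP cKO samples was not tested.

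**Figure D4:**
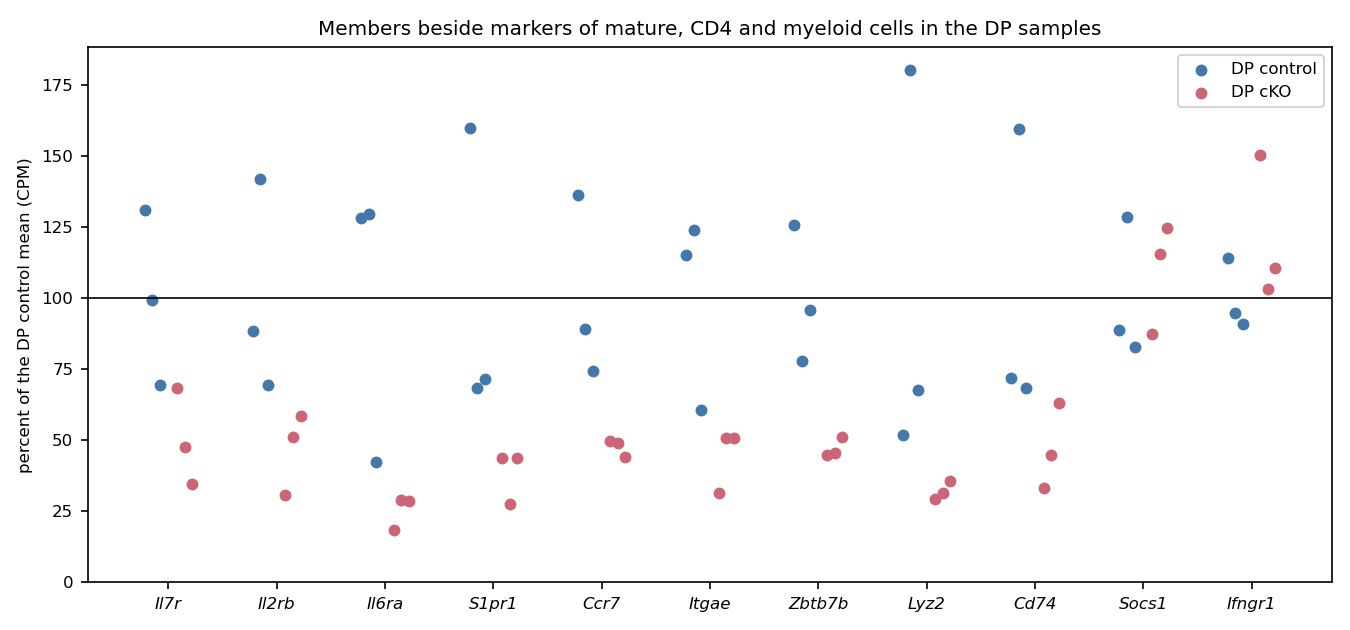
DP samples as percent of the DP control mean, from normalised CPM on a linear axis from 0, for *Il7r*, *Il2rb* and *Il6ra*, for markers of mature (*S1pr1*, *Ccr7*, *Itgae*), CD4 lineage (*Zbtb7b*) and myeloid or dendritic cells (*Lyz2*, *Cd74*), and for *Socs1* and *Ifngr1*. Each point is a sample; all cKO points of the first 9 genes lie below their control points, and those of *Socs1* and *Ifngr1* overlap.

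Of 5 DN thymocyte markers, *Notch3* was called higher in DP cKO samples (log2 fold change 1.01, edgeR adjusted p = 0.0415). Without DP control replicate 2 edgeR called no gene in this comparison, so the call of *Notch3* was lost there. The DN list, with *Dtx1* the most abundant, summed to 161, 161 and 131 CPM in DP control and 277, 219 and 287 CPM in DP cKO samples. *Notch3* made up most of this sum, at 121, 125 and 102 CPM in DP control and 249, 197 and 256 CPM in DP cKO samples, while *Dtx1* overlapped, *Kit* and *Il2ra* had all cKO below all control samples, and the median log2 fold change of the 5 was -0.05. Markers of gamma-delta and innate-like T cells, led by *Klrd1*, summed to 6.04, 3.51 and 3.50 CPM in DP control and 2.09, 2.61 and 3.17 CPM in DP cKO samples. NK markers (led by *Tyrobp*, with *Klra8* at 0 in every sample) summed to 1.72 to 4.35 CPM in DP control and 1.09 to 2.55 CPM in DP cKO samples, and B cell markers (led by *Cd79b*) to 18.9 to 30.2 CPM and 16.9 to 20.1 CPM. Epithelial and stromal markers, led by *Pecam1*, were at 145 to 152 CPM in DP control and 149 to 157 CPM in DP cKO samples, and of 6 erythroid markers, led by *Alas2*, the 4 globin genes were at 0 in every sample. Of all marker lists together, edgeR called *Notch3* alone among 46 genes tested in DP cells, with 18 at an unadjusted p under 0.05, beside 9.18% of all genes, and 8 called by DESeq2, which called 163 of all 16897 genes it tested. In CD8 cells edgeR called 0 of 45, with 7 at an unadjusted p under 0.05, beside 5.6% of all genes, and 1 called by DESeq2, which called 46 of 19757.

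Of the 78 other pathway genes, 65 were tested in DP cKO against DP control cells and none was called by edgeR. DESeq2 called 1, *Bcl2*, beside 163 of all 16897 genes it tested. Of the 65, 10 had an unadjusted p under 0.05, beside 9.18% of all genes. The median log2 fold change of the 65 was -0.07. All DP cKO samples were below all controls for 11, beside 7.22% of all genes, and above them for 5, beside 7.45%. *Bcl2* was at 58.4, 57.5 and 46.5 CPM in DP control and 33.8, 36.1 and 31.9 CPM in DP cKO samples, well apart (log2 fold change -0.67, edgeR adjusted p = 0.129), and was called with the replicate block (adjusted p = 0.0192; 0.00451 to 0.427 over 15 ways of fitting). *Cish* was at 4.16, 4.56 and 3.50 CPM in DP control and 1.87, 2.15 and 2.13 CPM in DP cKO samples, also without overlap (log2 fold change -0.99, edgeR adjusted p = 0.245).

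In CD8 cells cKO was compared with control in the same way. Of the 9 tested genes edgeR called 0, beside 0.098% of all 11227 genes (0.0891% higher and 0.00891% lower). Of the 9, 0 had an unadjusted p under 0.05, beside 5.6% of all genes. DESeq2 called none, beside 46 of all 19757 genes it tested. Every one of the 9 overlapped between genotypes, beside 1.51% of all genes without overlap, 0.837% higher and 0.668% lower. Their log2 fold changes lay between -0.37 and 0.19, with a median of -0.05, and that of all genes tested was -0.01.

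*Il7r* was at 372, 281, 336, 336 and 241 CPM in CD8 control samples and at 322, 284, 549, 350 and 278 CPM in CD8 cKO samples. Replicate 3 of the cKO group was above all other samples, and the log2 fold change of 0.19 (95% interval -0.19 to 0.57) became -0.020 without it and 0.38 without the samples numbered 1 and 2, neither called. *Il4ra* was at 187, 211, 364, 486 and 319 CPM in CD8 control and at 209, 212, 319, 268 and 202 CPM in CD8 cKO samples, with a log2 fold change of -0.37 (95% interval -0.84 to 0.10). Without the samples numbered 1 and 2 of both genotypes it was -0.56 (edgeR adjusted p = 0.374, the lowest over 20 ways of fitting). *Il2rb* was at 378 to 508 CPM in CD8 control and 397 to 575 CPM in CD8 cKO samples, where the highest belonged to the library labelled CD8 cKO replicate 4. Its log2 fold change of 0.09 (95% interval -0.15 to 0.32) was -0.0031 without that library.

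*Il2rg* (-0.05), *Il6ra* (-0.18), *Il21r* (-0.22) and *Ifngr1* (0.11) had small log2 fold changes in CD8 cells. *Socs1* was at 17.6, 27.8, 45.9, 48.2 and 42.1 CPM in CD8 control and at 38.2, 32.7, 32.7, 44.0 and 30.5 CPM in CD8 cKO samples. The control samples spread more widely than the cKO samples, which lay inside their range, and the log2 fold change was -0.03 (95% interval -0.50 to 0.44). Without the samples numbered 1 and 2 of both genotypes it was -0.34, also not called. *Socs3* was at 32.6 to 52.0 CPM in control and 35.1 to 50.3 CPM in cKO samples (log2 fold change -0.06, 95% interval -0.38 to 0.26). None of the 65 other pathway genes tested in CD8 cells was called by edgeR or DESeq2, and 5 had an unadjusted p under 0.05, beside 5.6% of all genes.

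The spread of *Il4ra* between CD8 control samples went with the replicate number. In the samples numbered 1 and 2, which were high in *Rag1*, *Il4ra* was at 187 and 211 CPM in control and 209 and 212 CPM in cKO cells, and *Klf2*, a transcription factor gene of mature cells, was at 341 and 263 CPM in control and 248 and 267 CPM in cKO cells. In the samples numbered 3 to 5 *Il4ra* was at 319 to 486 CPM in control and 202 to 319 CPM in cKO cells, where it overlapped the samples numbered 1 and 2, and *Klf2* was at 462 to 949 CPM. *Il6ra* and *Il21r* were lower in the samples numbered 1 and 2 than in the others in both genotypes. *Il6ra* was at 58.9 and 60.6 CPM against 68.6 to 90.2 CPM in control and at 49.6 and 53.4 CPM against 67.3 to 70.4 CPM in cKO cells. *Il21r* was at 379 and 491 CPM against 504 to 662 CPM in control and at 380 and 396 CPM against 409 to 535 CPM in cKO cells. *Socs1* and *Socs3* showed the split in control cells, and *Il7r* in neither genotype. The summed level of the DP markers was 3027 and 3074 CPM in the control samples numbered 1 and 2. In the other controls it was 2706 to 2852 CPM. In the cKO samples numbered 1 and 2 it was 2695 and 2684 CPM, inside the range of 2499 to 3051 CPM of the other cKO samples. The part of less mature cells in these differences was not tested.

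**Figure D5:**
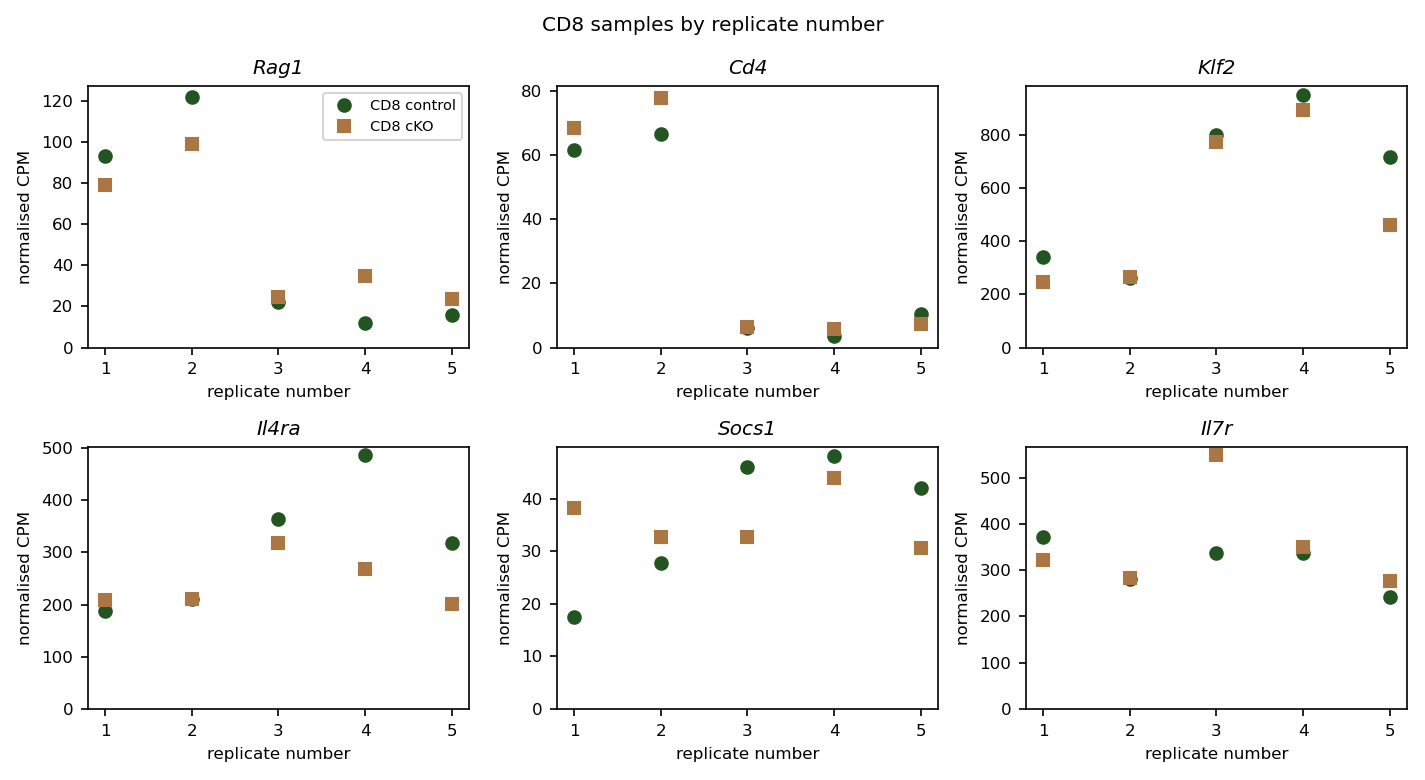
CD8 samples by replicate number, with normalised CPM on a linear axis from 0; circles are control and squares cKO samples. *Rag1* and *Cd4* are high and *Klf2* is low in the samples numbered 1 and 2 of both genotypes, where *Il4ra* is at 187 to 212 CPM, while *Il7r* shows no such split.

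Whether the cKO effect differed between the 2 cell types was tested as an interaction, called by an adjusted p under 0.05 alone. None of the 9 genes was called by edgeR, beside 0.107% of all 12131 genes. Of the 9, 3 had an unadjusted p under 0.05, beside 5.27% of all genes. DESeq2 called 2, *Il2rb* and *Il6ra*, beside 37 of all 20349 genes it tested. With the replicate number within each cell type as a block, edgeR called 3, *Il7r* (adjusted p = 0.0134; 0.0134 to 0.9998 over 23 ways of fitting), *Il2rb* (0.0378; 0.0224 to 0.778) and *Il6ra* (0.0412). Among all 12131 genes, 33 were called with this block. Without the block, the cKO effect in CD8 cells was higher than that in DP cells by 1.18 for *Il7r* (95% interval 0.45 to 1.92, edgeR adjusted p = 0.582), by 1.18 for *Il2rb* (95% interval 0.57 to 1.79, edgeR adjusted p = 0.249) and by 1.80 for *Il6ra* (95% interval 0.94 to 2.66, edgeR adjusted p = 0.158) on the log2 scale. *Il6ra* also passed without DP control replicate 3, at 2.16 (edgeR adjusted p = 0.00507), and with no filter on low counts (adjusted p = 0.0460), and over 23 ways of fitting its adjusted p ran from 0.00343 to 0.634. The other 6 genes had differences between -0.17 and 0.25. Of 68 other pathway genes 1, *Bcl2*, was called, with a difference of 0.79 (edgeR adjusted p = 0.0499), and the call was lost in 14 of the 16 fits that leave out 1 sample, with adjusted p-values between 0.0222 and 0.213 over the 16. Over 23 ways of fitting, the adjusted p of *Bcl2* ran from 0.000198 to 0.213 and its difference from 0.73 to 0.88.

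The genes with a pattern most like that of *Il7r* over the 16 samples were *Dse*, *Ifi208* and *Gm11346*, with root mean square differences of 0.333, 0.337 and 0.337 on the centred log2 scale among 12130 genes. *Coro1a* and *Gipc1* were among those most like *Socs1*, at 0.206 and 0.210.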

How the data were processed

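RNA-seq counts per gene from 16 thymocyte samples were used. According to the study's methods the authors trimmed reads with fastp 0.13.1, aligned them with HISAT2 2.1.0 (mm10 for DP cells) and counted fragments on genes, strand-specifically, with featureCounts 1.6.1; the deposited values are raw counts per gene, in 1 table for each cell type. CPM and TPM were computed here, with TMM scaling over all 16 samples; fold changes use the scaling of each fit. Genes were filtered with filterByExpr and tested with edgeR 4.0.16 in R 4.3.3 with limma 3.58.1; exact permutation tests ran over samples. Figures used matplotlib 3.10.9. Alternatives were DESeq2 1.42.0, RLE and upper-quartile scaling, no filter, a replicate block, all 4 groups in 1 fit, no limit on fold change or TPM, and leaving out each sample; leaving out the CD8 samples numbered 1 and 2, and using the control samples low in *Xist*, were chosen after the values were seen.

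Deviations from the group mean were correlated between control and cKO samples. In DP cells same-numbered pairs had a mean of 0.351 (0.643, 0.120 and 0.290) and other pairs -0.168. Among the other DP pairs, 2 (0.324 and 0.297) were above the pairs numbered 2 and 3. In CD8 cells same-numbered pairs had a mean of 0.277 (0.365, 0.299, 0.318, 0.313 and 0.0908) and other pairs -0.0719. CD8 control 4 with cKO 3 (0.421) was above every same-numbered CD8 pair. Control 2 with cKO 1 (0.301), control 1 with cKO 2 (0.290) and control 3 with cKO 4 (0.260) were also high. *Xist* was high in both genotypes of the CD8 samples numbered 1, 2 and 5 and low in those numbered 3 and 4. Whether equal numbers are pairs is not stated in the labels, and the block by number is given as an alternative in each comparison, within cell type for the interaction; across cell types no link between equal numbers was shown. The members and lists were chosen with earlier results of these data known. Named pathway genes are those called in a cKO comparison or the interaction and, between the cell types, up to 3 called genes of each list and direction with the largest change; for markers the most abundant gene by TPM is named, and for likeness to *Il7r* and *Socs1* the 3 closest genes. *Ifngr2*, *Jak2*, *Il7*, *Il6*, *Cish* and *Bcl2* in DP cells, *Xist* and marker genes other than the most abundant of a list were named after their values were seen. Some genes that this rule names are not reported here.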

Additional observations from a re-analysis of the deposited data

Results flagged for a closer look

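In groups of 5 samples, 72 groups of a gene's values were looked at for a sample far from the rest, which chance gives in about 1 of 20 groups, and 5 had one. *Il7r* was at 549 CPM in CD8 cKO replicate 3, with the nearest sample at 350 CPM. *Il2rg* was at 1491 CPM in CD8 control replicate 1, the sample with a count on the most genes, with the nearest at 1138 CPM. *Ifngr1* was at 192 CPM in CD8 cKO replicate 3 (nearest 153 CPM), and *Socs2* at 0.570 CPM in that sample (nearest 0.353 CPM), from 5 counts. *Socs3* was at 50.3 CPM in the library labelled CD8 cKO replicate 4 (nearest 38.2 CPM). *Bcl2* stood out by a difference between cell types, with a cKO effect higher by 0.79 on the log2 scale in CD8 than in DP cells in edgeR's interaction test. The causes were not tested.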

How the results depend on the processing

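Of the tested single-gene changes under alternatives other than leaving out 1 sample, 454 kept their direction and side of an adjusted p of 0.05, the limit on fold change set aside, 11 passed it newly, 7 lost it and 4 reversed; when 1 sample was left out, 567 kept both, 2 passed newly, 21 lost it and 26 reversed. By fold change alone, calls between control CD8 and control DP cells were also lost for *Socs1* without the CD8 samples numbered 1 and 2 (-0.43) and without CD8 control replicate 1 (-0.58), and for *Socs3* with the block (0.51), without DP control replicate 2 (0.54) and without CD8 control replicate 4 (0.57). Of the 9 members tested in DP cKO cells, those called were 2 with DESeq2, 1 with all 4 groups in 1 fit and 1 with the replicate block, against 0. Among all genes 17 were called there, and 163 with DESeq2, 42 with all 4 groups, 74 with no filter, 131 with the block and 0 to 8 without 1 sample. In CD8 cells 11 genes were called, and 46 with DESeq2, 31 with the block, 5 without the samples numbered 1 and 2 and 4 to 20 without 1 sample. In the interaction the members called were 2 with DESeq2, 1 with no filter, 3 with the block and 0 to 1 without 1 sample, against 0; among all genes 13 were called, and 37 with DESeq2, 33 with the block, 3 with upper-quartile scaling, 5 without the CD8 samples numbered 1 and 2 and 0 to 11 without 1 sample. Of the other pathway genes 1 was called in DP cells with DESeq2, with all 4 groups and with the block, and *Bcl2* in the interaction was lost (0 called) with no filter, with upper-quartile scaling and without the samples numbered 1 and 2, and 0 to 1 were called without 1 sample. *Tox4* in control CD8 against control DP cells changed by 0.29 on the log2 scale (edgeR adjusted p = 0.0156), by 0.28 with no filter (adjusted p = 0.0535), by 0.31 with the block (adjusted p = 0.0690) and by 0.23 to 0.35 without 1 sample, with adjusted p from 0.00622 to 0.0690 over 19 ways of fitting. Log2 fold changes that reversed were those of *Il2rg* in CD8 cells without the samples numbered 1 and 2 (0.059), *Il4ra* in control CD8 against control DP cells in samples low in *Xist* (0.12), *Il4ra* in the interaction without the samples numbered 1 and 2 (-0.17) and *Socs1* in CD8 cells with the block (0.037). Without 1 sample, the values that reversed in at least 1 fit ran in CD8 cells from -0.020 to 0.27 for *Il7r*, -0.0031 to 0.15 for *Il2rb*, -0.11 to 0.049 for *Il2rg*, -0.20 to 0.096 for *Socs1* and -0.16 to 0.041 for *Socs3*. In DP cells they ran from -0.0017 to 0.35 for *Socs1* and -0.14 to 0.074 for *Socs3*, and in the interaction from -0.11 to 0.24 for *Il4ra*, -0.27 to 0.018 for *Ifngr1* and -0.14 to 0.090 for *Socs3*. The cause was not tested. With 3 DP samples per genotype the exact permutation p cannot go below 0.1, and *Il6ra* and *Socs2* rest on few counts in DP cells. The block between cell types ties samples by number alone.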
